A study of Mus musculus with 7 samples.

Results

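The DUF622 family, also called the Takusan family, is a multicopy gene family of rodents whose predicted proteins share a domain of unknown function. In the authors' deposited table of transcript clusters that differed between wild-type and Ctcf-cKO mouse testis, 141 of 7580 rows belonged to it. A row was taken as a member when it was in the table's class Coding or Complex and its annotated protein domains named DUF622 or Takusan, and all 141 carried the text for DUF622. The table itself had been filtered by the authors on a linear fold of 2 and a p of 0.05 between the genotypes, so the members were selected on the difference between genotypes, and their number, their direction and every difference of at least 1 on the log2 scale are a description and no finding.

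The arrays, 1 for each of 3 wild-type and 4 Ctcf-cKO adult mice, measured RNA from their seminiferous tubules according to the methods. The sample titles read testes. In Ctcf-cKO mice, 1 floxed and 1 excised allele of Ctcf, the gene of a zinc finger protein that organizes chromatin loops, were combined with the Stra8-iCre transgene, which is active in spermatogonia and pre-leptotene spermatocytes. The wild-type mice were littermates without Cre, with floxed or wild-type Ctcf alleles, and all mice had a background that the methods write as C56BL/6J. Sertoli, Leydig and other somatic cells are not targeted by this Cre. The RNA is of all cells of the sampled tissue, so fewer cells of a type and less RNA per cell cannot be told apart. Ctcf itself has no row, so inactivation could not be checked in these values. The table gives 1 average of the log2 signal per genotype and no value of a single mouse. No spread between mice and no test could be computed, and precision is limited by the 7 arrays.

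Most DUF622 genes carry only a predicted gene number. They lie in tandem arrays of near-identical copies. The family has been studied in neurons under the name takusan, and its Speer members, named as spermatogenesis-associated glutamate-rich proteins, are known for expression in testis. In the table's Gene Ontology columns, 0 of the 141 members had a biological process term beyond the root term. The only further terms were nucleus for Speer4c and Speer4d, and protein binding for the rows of Gm3383 and Gm3500.

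To show how alike the copies are, stretches upstream of the annotated start sites of 7 members are printed 5′ to 3′ from RefSeq (GRCm38.p6), each ending at or before its start site. The first 3 belong to the same promoter family of chromosome 14 but differed in their values. Gm3685 (chr14:7044908-7045157, minus strand) is among the brightest members of its cluster, Gm6676 (chr14:7125398-7125580, minus strand) had 1 of the larger differences and Gm10408 (chr14:3449136-3449311, plus strand) is dim. Capitals mark bases that are not matched by an equal base of Gm3685. The Gm6676 stretch was 96.7% identical to Gm3685 over 183 aligned bases and the Gm10408 stretch 90.6% over 181.
Gm3685: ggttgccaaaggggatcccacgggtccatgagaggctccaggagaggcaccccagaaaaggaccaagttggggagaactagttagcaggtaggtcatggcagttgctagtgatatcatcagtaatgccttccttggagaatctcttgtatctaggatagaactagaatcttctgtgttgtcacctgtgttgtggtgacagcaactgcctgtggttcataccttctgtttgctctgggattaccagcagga
Gm6676: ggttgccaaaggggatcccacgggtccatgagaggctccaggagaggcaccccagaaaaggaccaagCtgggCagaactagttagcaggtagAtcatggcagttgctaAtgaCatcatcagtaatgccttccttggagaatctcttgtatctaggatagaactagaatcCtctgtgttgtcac
Gm10408: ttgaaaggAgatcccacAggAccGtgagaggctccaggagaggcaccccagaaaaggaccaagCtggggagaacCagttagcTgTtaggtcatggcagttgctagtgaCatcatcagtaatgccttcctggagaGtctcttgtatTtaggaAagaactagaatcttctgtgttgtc

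The next pair is 1 member from each of the opposite orientations of the largest cluster, which differed in their values. Gm8126 is an extreme, with the largest difference of the cluster (-1.55), against -1.24 for Gm7980. Other members with the orientation of Gm7980 belong to another promoter family. Gm8126 (chr14:43258372-43258619, plus strand) and Gm7980 (chr14:41907318-41907563, minus strand) were 74.0% identical over 258 aligned bases, and capitals mark bases of each that are not matched by an equal base of the other.
Gm8126: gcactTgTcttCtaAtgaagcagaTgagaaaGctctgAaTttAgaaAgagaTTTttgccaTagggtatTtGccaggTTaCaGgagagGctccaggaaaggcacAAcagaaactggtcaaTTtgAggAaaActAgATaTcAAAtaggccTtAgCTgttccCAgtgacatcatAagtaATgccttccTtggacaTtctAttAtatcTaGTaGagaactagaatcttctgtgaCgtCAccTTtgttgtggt
Gm7980: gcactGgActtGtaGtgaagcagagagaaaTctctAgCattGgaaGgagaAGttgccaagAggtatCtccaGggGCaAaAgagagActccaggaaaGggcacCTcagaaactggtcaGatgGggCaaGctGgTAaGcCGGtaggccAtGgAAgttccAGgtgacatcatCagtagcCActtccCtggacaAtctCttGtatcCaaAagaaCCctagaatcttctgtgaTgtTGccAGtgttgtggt

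The last pair stands for the main clusters of chromosome 5. 4933402N22Rik (chr5:11917793-11917942, plus strand) and Speer4e (chr5:14938476-14938612, minus strand) were 67.5% identical over 157 aligned bases, with capitals as in the pair before.
4933402N22Rik: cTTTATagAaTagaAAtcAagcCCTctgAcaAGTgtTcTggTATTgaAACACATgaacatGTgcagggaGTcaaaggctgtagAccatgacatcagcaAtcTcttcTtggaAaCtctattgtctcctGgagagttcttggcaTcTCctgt
Speer4e: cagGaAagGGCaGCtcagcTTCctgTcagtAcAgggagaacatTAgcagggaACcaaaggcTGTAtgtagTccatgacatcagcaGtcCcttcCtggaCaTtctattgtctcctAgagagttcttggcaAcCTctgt

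Of the 141 rows, 123 were of class Coding and 18 of class Complex, and 116 lay on chromosome 14, 24 on chromosome 5 and 1 on chromosome 16. A new cluster was counted where the next member's start was more than 1 Mb away, which gave 9 clusters. The proximal cluster of chromosome 14 (positions 3049285 to 7450917 as the table lists them, on mm10 per the submitters' processing notes) held 47 members. The middle cluster (41278805 to 44724987) held 60 members and the distal cluster (51361756 to 51717183) held 8. On chromosome 5, 14 members lay between 10242041 and 11922821, 7 between 14910122 and 15714271, and 2 between 17373208 and 17480936. Gm2244 on chromosome 14, Speer3 on chromosome 5 and Speer2 on chromosome 16 stood alone.

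The median distance between neighbouring starts was 82.6 kb (25.1 to 252.4) in the proximal cluster, 40.4 kb (15.2 to 344.4) in the middle cluster and 84.5 kb (54.4 to 623.0) in the first cluster of chromosome 5. Orientation followed position in some clusters. In the proximal cluster 22 of 23 plus-strand members started before the first minus-strand member, and 22 of 24 minus-strand members started after the last plus-strand member. In the first cluster of chromosome 5, 13 of 14 members were on the plus strand, the exception being Gm5152 at its start. In the middle cluster both strands were interspersed.

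Rows are not always single genes. Of the 141 members, 37 listed more than 1 symbol, 36 listed a symbol that another member also listed, and 8 were longer than 50 kb, the longest being Gm7247 with 208227 bases. Gm10413, Gm3012, Gm8279 and Gm5795 were listed together on 4 rows. On the same strand, 6 members overlapped another member, and 130 of the 141 overlapped a gene of the RefSeq annotation (GRCm38.p6), 116 of them a gene with a symbol or identifier that the row lists. The table does not say how many probes of a row match other copies, so the rows cannot be taken as 141 separate measurements. How far signal is shared between copies was not tested.

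All 141 members were lower in Ctcf-cKO. Of all rows 64.9% were lower, as were 62.1% of the coding rows (classes Coding and Complex) and 60.8% of the coding rows without the members. Wild-type averages of the members ran from 7.39 to 11.44 with a median of 9.52 on the log2 scale, and Ctcf-cKO averages from 6.23 to 10.05 with a median of 8.33. All 141 members had averages of 6 or more in both genotypes. Signals of different rows depend on their own 40 to 130 probes, so the order of averages is not an order of RNA amounts.

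**Figure D1:**
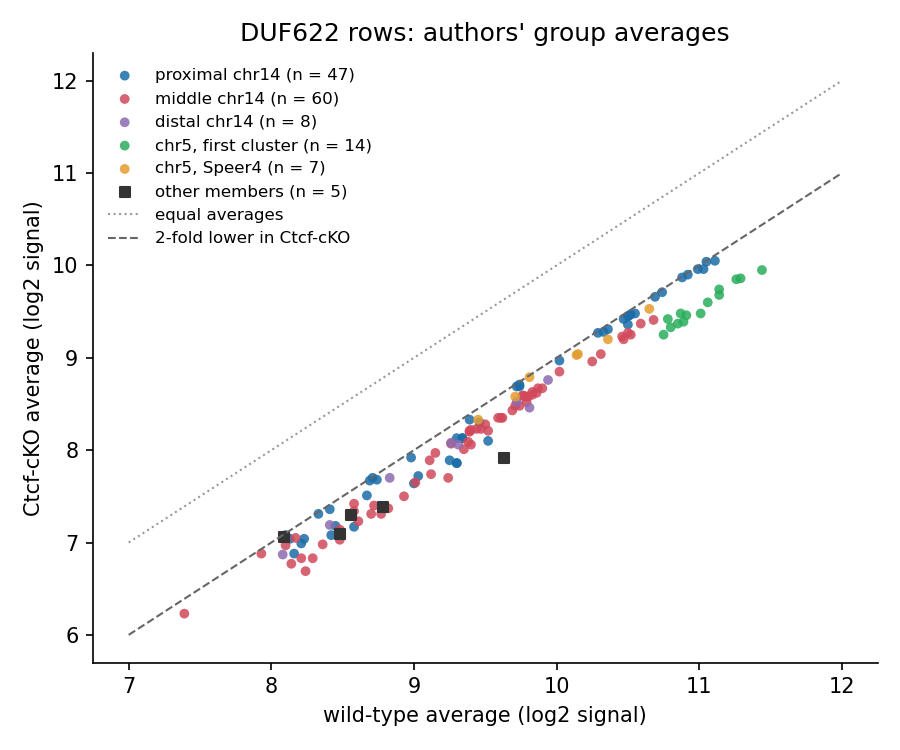
Authors' average log2 signal in Ctcf-cKO (vertical axis) against wild-type (horizontal axis) for each of the 141 members, coloured by cluster; the dotted line marks equal averages and the dashed line a 2-fold lower signal in Ctcf-cKO. All 141 points lie below the dashed line, which is the limit that the table's filter sets for lower rows. The first cluster of chromosome 5 (wild-type averages from 10.75 to 11.44) lies at the bright end with differences from -1.53 to -1.36. Speer2 (-1.72) lies furthest below the line.

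The differences, Ctcf-cKO minus wild-type, had a median of -1.22 (2.33-fold lower) and ran from -1.72 to -1.01. Across members the wild-type averages had an SD of 0.93 and the differences an SD of 0.15, both over rows and not over mice. For comparison, the 2408 other lower coding rows had a median difference of -1.29, an SD of differences of 0.23 and an SD of wild-type averages of 1.26. The middle part of the members' differences, from the lower to the upper quartile, reached from -1.36 to -1.12, and that of the other lower coding rows from -1.46 to -1.16. The 2 ranges overlap for most of their length. Pearson's r between wild-type average and difference was 0.01 over the 141 members, but 0.43 over the 47 of the proximal cluster and 0.24 over the 60 of the middle cluster of chromosome 14, where brighter copies tended to have differences closer to 0. The table's filter cuts the differences at -1 but does not cut the wild-type averages in this way. This cut limits the SD of the differences and can shape the values of r. Members share arrays and may share probe sequences, so these values are a description.

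Of the members, 32 had a difference within 0.1 of the table's limit, a difference of 1 on the log2 scale. The members just inside were Gm3500, Gm3591 and Gm3685, each at -1.01, and copies with a smaller difference have no value here. The 3 lie in the proximal cluster of chromosome 14, as did 29 of the 32.

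The proximal cluster had the differences closest to 0 among the larger clusters, with a median of -1.06 (2.08-fold lower). Its 47 differences ran from -1.44 to -1.01. The 29 members within 0.1 of the limit had wild-type averages from 8.10 to 11.11 with a median of 10.33, and 17 of them were at 10 or more. The 18 members with larger differences had wild-type averages from 8.16 to 10.50 with a median of 9.14, and 1 of them was at 10 or more. Nearly all bright copies of this cluster thus sat close to the limit of the table, while dim copies were in both sets. Among the bright copies, Gm3685 averaged 11.05 and 10.04 and Gm3591 averaged 10.88 and 9.87 (wild-type before Ctcf-cKO here and below), a difference of -1.01 in each. D830030K20Rik was dim, with 8.10 and 7.08, and also close to the limit at -1.02. The largest differences of the cluster belonged to Gm6676 and Gm16434, neighbours on the minus strand, each at 9.30 and 7.86 (-1.44, 2.71-fold lower). 4930555G01Rik averaged 9.00 and 7.64 (-1.36).

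**Figure D2:**
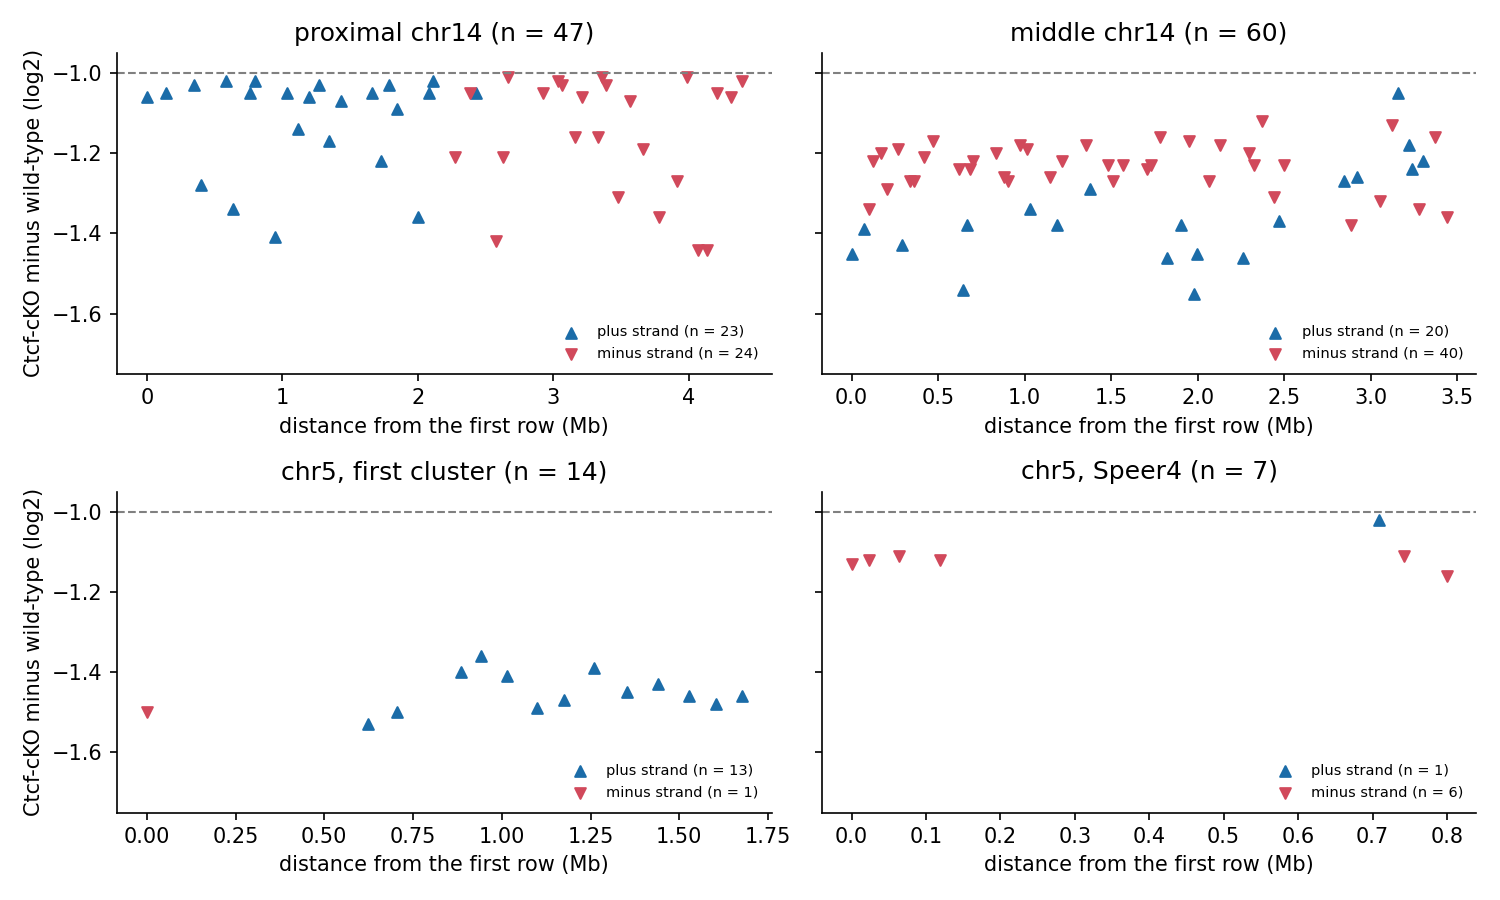
Difference between genotypes (log2, vertical axis) of each member against its distance from the first member of its cluster (Mb, horizontal axis) in 4 clusters, with plus-strand members as upward and minus-strand members as downward triangles; the dashed line marks the limit of the table at -1. In the middle cluster of chromosome 14 the orientations form bands that overlap in part (-1.55 to -1.29 and -1.34 to -1.12 before the widest gap) and whose strands change places after it, and the 14 members of the first cluster of chromosome 5 lie between -1.53 and -1.36.

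In the middle cluster of chromosome 14, the 60 differences ran from -1.55 to -1.05 with a median of -1.25 (2.38-fold lower). Its widest gap without a member lay between 43784745 and 44123851. Before this gap 14 members were on the plus strand and 34 on the minus strand. The 14 plus-strand members had differences from -1.55 to -1.29 with a median of -1.41, and the 34 minus-strand members differences from -1.34 to -1.12 with a median of -1.23. The ranges overlap between -1.34 and -1.29, and all 14 plus-strand members were below the median of the other orientation.

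After the gap the strands changed places. There 6 minus-strand members had a median of -1.33 (-1.38 to -1.13) and 6 plus-strand members a median of -1.23 (-1.27 to -1.05). Joined in this way, the set of 20 was lower by a median of 2.60-fold and the set of 40 by 2.35-fold, and 16 of the 20 were at or below the lowest difference of the 40. None of the 40 (0 of 40) reached the median of the 20. This split was made after the values had been seen and has no test. The 20 were also longer, with a median row length of 8178 bases against 5417, and dimmer, with a median wild-type average of 8.65 against 9.73. Their probe numbers were alike, with medians of 50.5 and 50.

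Gm8126 had the largest difference of the cluster, with averages of 8.24 and 6.69 (-1.55, 2.93-fold lower). 1700049E17Rik1 averaged 9.24 and 7.70 (-1.54), and 1700049E17Rik2 averaged 8.93 and 7.50 (-1.43). 4930503E14Rik, which lies after the gap, averaged 8.36 and 6.98 (-1.38), and 1700024B05Rik averaged 9.12 and 7.74 (-1.38). These named transcripts all belong to the set of 20. In the set of 40, 1700001F09Rik was listed on a pair of rows on either side of the gap. The row before it averaged 10.47 and 9.20 and the row after it 9.79 and 8.52, so the first was brighter in both genotypes while both differences were -1.27. BC061237 averaged 9.15 and 7.97 (-1.18). Gm8232, also in the set of 40, averaged 7.93 and 6.88 (-1.05). The dimmest member of the family, Gm8257, belongs to the set of 20 and averaged 7.39 and 6.23 (-1.16). Its difference was smaller than the median of the set of 40 (-1.23).

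The distal cluster of chromosome 14 had a median difference of -1.20 with a range from -1.35 to -1.13. Its 6 minus-strand members, such as Gm17079 (9.94 and 8.76, -1.18), were 5141 to 5541 bases long, whereas its plus-strand rows Gm7247 (8.08 and 6.87, -1.21) and Gm5622 (9.81 and 8.46, -1.35) span 208227 and 110164 bases. Gm2244, alone at 19532896 to 19549958, averaged 8.09 and 7.06 (-1.03).

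The 2 larger clusters of chromosome 5 differed from each other by more than the range of either. In the first cluster the 14 members averaged 10.75 to 11.44 in wild-type and 9.25 to 9.95 in Ctcf-cKO, and their differences lay between -1.53 and -1.36 with a median of -1.46 (2.75-fold lower) and an SD over rows of 0.05. The 7 members of the cluster that holds Speer4c, Speer4d and Speer4e averaged 9.45 to 10.65 and 8.33 to 9.53. Their differences lay between -1.16 and -1.02 with a median of -1.12 (2.17-fold lower) and an SD over rows of 0.04. The difference ranges of these 2 clusters do not overlap. Speer3, alone at -1.39, and Gm3495 of the last cluster (-1.40) lay within the range of the first, and Speer4f of the last cluster (-1.26) between both ranges.

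The brightest members of the family were in the first cluster. Speer1-ps1 averaged 11.44 and 9.95 (-1.49), and Gm8922 averaged 11.29 and 9.86 (-1.43). Gm8890 averaged 11.26 and 9.85 (-1.41). Gm8879 and Gm8926 both averaged 11.14 in wild-type, with 9.74 and 9.68 in Ctcf-cKO. Gm6455 (11.01 and 9.48, -1.53) and Gm5152 (10.89 and 9.39, -1.50) had the largest differences there. 4933402N22Rik, at the end of the cluster, averaged 11.06 and 9.60 (-1.46).

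Speer members outside that cluster covered nearly the whole range of the family. Speer2, the member of chromosome 16 (69856874 to 69863744, minus strand), averaged 9.63 and 7.91 and had the largest difference of all members (-1.72, 3.29-fold lower). Speer3 averaged 8.48 and 7.09 (-1.39) and Speer4f 8.56 and 7.30 (-1.26). Speer4e averaged 9.45 and 8.33 (-1.12), Speer4c 10.36 and 9.20 (-1.16) and Speer4d 9.81 and 8.79 (-1.02). Among these, Speer4d was closest to the limit of the table. Of 13 rows with a Speer symbol in the table, 7 had such a symbol first and were members, and all 13 were lower. The 6 rows outside the rule ran from -1.11 for Speer5-ps1 to -1.38 for the row that lists Speer7-ps1 first. Dlg5, a scaffold gene related to this family, has no row.

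Equal values were rare among the copies. Of the 141 members, 4 (2.84%) had both averages and the probe number of another member, which leaves 139 distinct profiles. Gm6676 (7116798 to 7125412) and Gm16434 (7185927 to 7194540) shared 9.30 and 7.86 with 70 probes, and each row lists the other's symbol. Gm3542 and Gm9603 shared 9.34 and 8.13 with 50 probes and have the same length of 8674 bases. A member also shared its values with a row outside the rule, Gm3317/Gm8265 with Gm3339, at 9.52 and 8.10 with 40 probes. When averages within 0.05 of another member in both genotypes were counted, the number was 90 of 141 (63.8%), against 334 of 365 (91.5%) for coding rows of chromosome Y, another chromosome of multicopy testis genes. Such a share rises with the number of rows in a set and with how closely their values lie. The sets differ in size, so these shares are no measure of shared probes. Among the other lower coding rows 216 of 2408 (8.97%) had equal values, and among coding rows of chromosome Y 176 of 365 (48.2%). These sets overlap, as 358 of the 365 chromosome Y rows were lower and are also among the 2408. The share among lower coding rows of the other chromosomes was not computed. The 8.97% thus does not show that equal values were rarer among the members than among ordinary coding rows. No test of these shares was made.

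A RefSeq promoter window, 250 bases before to 50 bases after a start site within 1000 bases of the row's 5′ end and with a symbol or identifier of the row, was found for 79 of the 141 members. Of their 3081 pairs, 605 were at least 80% identical over at least 150 aligned bases. The median identity was 94.4% among the 636 aligned of 853 pairs of the same cluster. It was 70.4% among the 1286 aligned of 2228 pairs of different clusters. Pairs with fewer aligned bases were left out, so these medians describe only the pairs alike enough to align. Grouping at 80% gave 8 promoter families of at least 2 members and 6 single promoters. These families came from sequence alone, and the values below are given for description.

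The largest promoter family had 24 members, all from the proximal cluster and Gm2244, with a median difference of -1.12 (-1.44 to -1.01). Families of 15 and 13 members belonged to the set of 40 of the middle cluster and, in the second, also to the distal cluster, with medians of -1.21 and -1.22. Of the 7 promoters found for the set of 20, 6 formed a family of their own with a median of -1.42 (-1.55 to -1.36), and that of Gm7995 (-1.34) stood alone. On chromosome 5, a family of 8 held Speer4c, Speer4d and Speer4e (median -1.12, from -1.40 to -1.02) and a family of 3 held Gm5861, Gm6460 and 4933402N22Rik (median -1.45). The promoters of Speer2 on chromosome 16 and of Speer1-ps1 on chromosome 5 were 90.2% identical, and these rows had the differences -1.72 and -1.49.

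**Figure D3:**
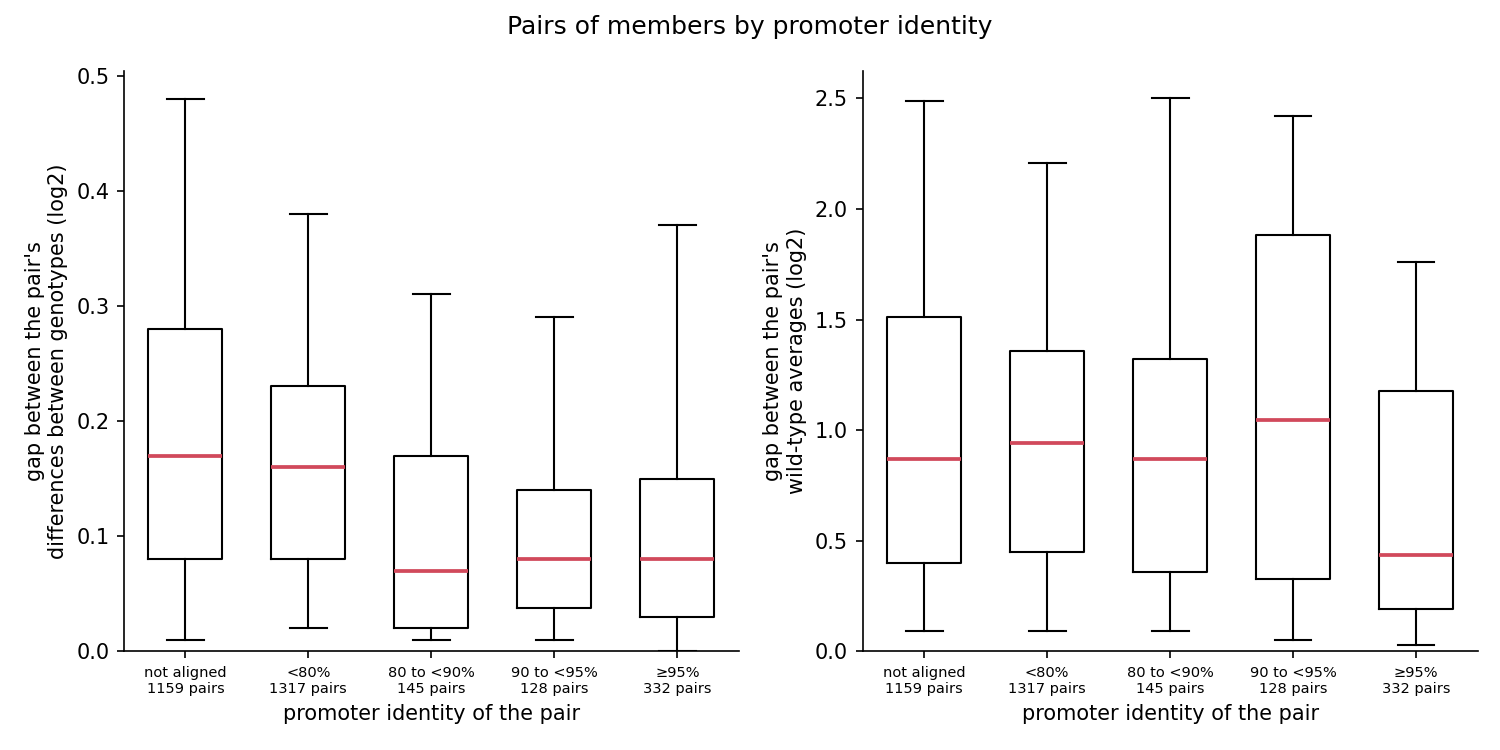
Gap between the differences of 2 members (left, log2) and gap between their wild-type averages (right, log2) for the 3081 pairs of members with a promoter, by promoter identity; boxes are quartiles with the median in red, whiskers reach from the 5th to the 95th percentile, and pairs with fewer than 150 aligned bases are shown as not aligned. The median gap between differences was 0.08 at 95% or more, 0.08 from 90%, 0.07 from 80% and 0.16 under 80%, and that between wild-type averages 0.44, 1.04, 0.87 and 0.94.

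The gaps between the values of a pair did not fall evenly with promoter identity. For 332 pairs at 95% or more, the median gap between differences was 0.08 and the median gap between wild-type averages 0.44. For 128 pairs from 90% to under 95% the medians were 0.08 and 1.04, and for 145 pairs from 80% to under 90% they were 0.07 and 0.87. For 1317 aligned pairs under 80% they were 0.16 and 0.94. The gap between differences was thus alike in the bands from 80% upwards, and the gap between wild-type averages was smaller in the top band alone. Pairs share members and clusters, so they are not independent. Gm6676 and Gm16434 had equal windows in all 300 bases. The stretches printed above show the other side. Gm3685 and Gm6676, with 6 unmatched bases in the Gm6676 stretch, differed by 1.75 in wild-type average and by 0.43 in difference.

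Each of the 3 motifs searched was in few of these windows. The TATA box letters TATAAA, on either strand, were in 5 of the 79 member windows (6.33%) and in 13.6% of all 32851 RefSeq windows. All 3 windows of the Gm5861 family held them, as did those of Gm8267 and Gm5622. The cAMP response element TGACGTCA, bound in spermatids by CREM, was in Gm8126, Gm5799 and Gm8267 (3.80% against 1.79%), each of the set of 20, and it lies near the 3′ end of the Gm8126 stretch above. The letters GGNGGCAG from the core of the CTCF motif were in 1 of 79 windows, that of Gm3411 (1.27% against 12.6%). Many member windows are near-copies, such as those of Gm8126 and Gm5799 (100% identical over 259 aligned bases). The shares of the 79 are therefore not shares of separate sequences. A match is a description of letters, not a site of binding.

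Promoters like those of the members also lead to genes without a row. By the same measure, 149 RefSeq genes had a window at least 80% identical to that of a member, a count that includes the members' own windows. Of these, 94 were listed by or lay at a member row, 12 had only another row of the table and 43 had no row. In the proximal cluster 36 of 58 such genes had a member row and 22 had none, and in the middle cluster 37 of 52 had a member row and 7 none. All 13 outside the clusters lay on chromosome 5, with start sites from 25942366 to 27501392, and had no row. Among them were Speer4a and Speer4b, whose windows were 96.5% and 98.0% identical to that of their closest member. Whether such genes were on the array below the limits of the table or without probes of their own was not analysed here.

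The members stand among other rows of the same chromosome stretches. In the proximal cluster 49 rows not described as DUF622 were listed, and all 49 were lower, with a median of -1.55 (2.93-fold lower) against -1.06 for the 47 members. Of the 49, 41 had a larger difference than every member there, and all 49 were beyond the members' median. Annotated HMG box pseudogenes of 316 to 598 bases made up 28 of them (median -1.55), and all 28 were on the strand opposite to their nearest member. Rows listing 1700110I01Rik (6 rows, -1.71 to -1.62) were on the strand of their nearest member, and non-coding rows listing 4933406F09Rik (7 rows, -1.61 to -1.43) on the opposite strand. These rows are also copies of each other and are not separate observations.

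In the first cluster of chromosome 5, 11 non-coding rows were listed, all on the minus strand and none (0 of 11) overlapping a member. Their differences ran from -2.51 to -1.54 with a median of -1.78 (3.43-fold lower), so every one was beyond every member of that cluster, whose range ended at -1.53. They included 4930558F17Rik, listed on a pair of rows with equal values (11.24 and 9.57), and 1700003C15Rik (10.34 and 8.54, -1.80). In the middle cluster of chromosome 14 the 12 other rows were mixed, 9 lower and 3 higher, and none (0 of 12) was beyond every member. The 3 higher rows were 9930105H17Rik (1.46), the pseudogene Gm16439 (1.54) and an unnamed non-coding row (1.03). Among the 9 lower rows was Gm21162 (-1.17), whose promoter window was 99.0% identical to that of a member, so not all of the 12 are unrelated to the family.

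**Figure D4:**
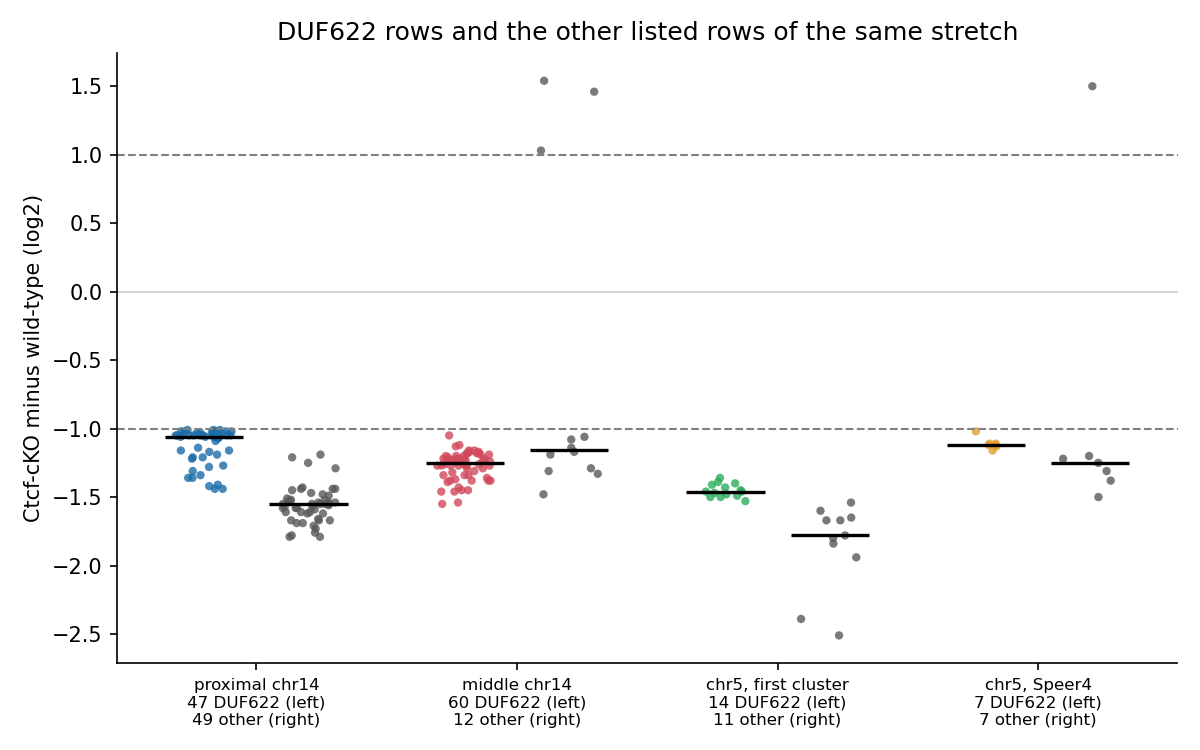
Difference between genotypes (log2, vertical axis) of the members (coloured, left) and of all other rows of the table in the same stretch that are not described as DUF622 (grey, right) for 4 clusters; black bars are medians and dashed lines mark the limits of the table at -1 and 1. In the proximal cluster of chromosome 14 and the first cluster of chromosome 5 the other rows lie lower, with medians of -1.55 and -1.78 against -1.06 and -1.46. Some grey rows are themselves copies of the family or like its members. In the cluster that holds Speer4c these are rows that list Speer symbols, and Gm21083 (promoter window 98.2% identical to that of a member). In the middle cluster Gm21162 (99.0%) is such a row.

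Listed markers of spermatids and spermatocytes were lower as well. The marker lists were made with earlier results of these data known. The paper itself names H1fnt, Hook1, Spata16 and Spem1, all on the round spermatid list, as down-regulated. That these genes were lower was thus known in advance, and the counts of markers below are a description. All 8 listed round spermatid markers, among them Acrv1 and Spem1, had a row and were lower (-1.60 to -1.03, median -1.27), as were all 8 spermatocyte markers, among them Sycp1 and Spo11 (-1.57 to -1.04, median -1.27). The members' median of -1.22 lay within both ranges, but so did the median of the 2408 other lower coding rows (-1.29). The table's filter keeps all lower rows below -1, so this placement shows no likeness of the members to these markers. Of the somatic lists, 4 of 6 Sertoli cell markers (1.46 to 1.85), 5 of 6 Leydig cell markers (1.39 to 2.97) and 3 of 4 macrophage markers (1.59 to 2.33) had a row, and all of these were higher. Kit, the 1 of 6 spermatogonial markers with a row, was higher by 2.28. The part of a changed cell makeup in the values of the DUF622 rows was not tested.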

How the data were processed

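GeneChip mouse transcriptome arrays were hybridized with RNA of seminiferous tubules according to the methods, 3 from wild-type and 4 from Ctcf-cKO mice. Per the submitters' processing notes, the authors used Affymetrix Expression Console 1.4.1, RMA, Transcriptome Analysis Console 3.0 and mm10. The deposited table holds, per the file headers, 1 bi-weight average per genotype of the signal on the log2 scale, written with decimal commas and 2 decimals, and the number of probes. It also holds the authors' fold changes, p-values and adjusted p-values, which were not used. It lists only transcript clusters past a fold of 2 and a p of 0.05, and has 0 columns of single-array values, so no test was run.

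Differences are Ctcf-cKO minus wild-type. Members and lists were chosen with earlier results of these data known. Members named in the text were those whose symbol is not Gm and a number, the 5 brightest, the 5 dimmest, the 5 largest and the 5 smallest differences, and rows with a Speer symbol or Dlg5; other members named were chosen after their values were seen. Equal values mean both averages equal to 2 decimals and equal probe numbers. Promoters were aligned with Biopython 1.88 (match 2, mismatch -3, gap opening -6, gap extension -1, free ends) and grouped by average linkage at 80% identity with SciPy 1.17.1. The cluster, equality and alignment steps passed 6 of 6 checks on simulated data.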

Additional observations from a re-analysis of the deposited data

How the results depend on the processing

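No paired analysis was possible because the deposited table has 0 columns of single-array values, and for the same reason limma, the replicate block and leaving out each replicate in turn were not run. Of 62 alternatives, 51 stayed within 1.5 times the main count or SD, 0.1 of a median on the log2 scale or 5 percentage points of identity. Part of this was fixed in advance. Requiring an average of at least 6 in either genotype kept all 141 rows and could change nothing. The count of lower members equalled the number of rows under every choice of rows. The 51 are therefore no measure of robustness. With chromosome 5 alone, there were 24 members lower and 24 distinct profiles, 0 members with the values of another member, a median difference of -1.40 and a median wild-type average of 10.79. With chromosome 14 alone the median wild-type average was 9.39. Counting rows with equal values once left 0 members with the values of another, by construction, and averages within 0.05 gave 90. Subtracting the median of all rows, -1.14, left a median difference of -0.07 with 100 of 141 members below 0. Chosen after seeing the data, adding rows described as DUF622 gave a median wild-type average of 9.40, whether of classes Coding and Complex (169 rows) or with Pseudogene rows too (186 rows). The number of clusters was 11 with a gap of 0.5 Mb and 6 with 2 Mb, against 9. Signal over background could not be judged from averages alone.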

Other observations

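Outside the rule, 45 further rows were described as DUF622 or takusan in the table but carried no domain text, and all 45 were lower. Those of class Coding or Complex numbered 28, with a median difference of -1.14 and a range from -1.42 to -1.01. Of these, 21 had 30 probes and rows of 1999 to 2773 bases, with a median wild-type average of 7.21, dimmer than the members' median of 9.52. The 17 rows of class Pseudogene had a median difference of -1.48 and a range from -1.63 to -1.03. The largest were Gm3008 (9.73 in wild-type and 8.10 in Ctcf-cKO, -1.63), Gm8065 (9.93 and 8.32, -1.61), Gm7152 (9.91 and 8.31, -1.60) and Gm6536 (8.69 and 7.09, -1.60), all on the plus strand of the middle cluster of chromosome 14 before its widest gap, the strand of the members with the larger differences there. These rows were named after their values were seen.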
